A study of Mus musculus with 6 samples.

Results

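The genes described here encode the focal adhesions and stress fibres of C2C12 cells, a line of mouse myoblasts, after knockdown of CNN3, an actin-binding protein of stress fibres. The set holds 45 genes chosen by gene name, with no measured value in the rule, and sarcomere and matrix genes were kept out of it. Of these, 44 were among the 11835 genes with a listed transcript and all 44 were tested, while Itga11 was not among the listed genes and was not analysed here.

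Focal adhesions are the sites where integrins, receptors made of an alpha and a beta chain, hold the cell to the extracellular matrix and pass force to actin. Talin and kindlin bind the integrin tails, vinculin, parvin and tensin join this complex to actin, and kinases such as FAK and Src signal from it. Stress fibres are bundles of actin and myosin tied by alpha-actinin and filamin, and their assembly is set by small GTPases, formins, cofilin and profilin. In muscle precursors these structures carry adhesion and migration before fusion, and integrin alpha 7 is the laminin receptor that marks muscle cells as they differentiate.

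Both groups were C2C12 cells placed in differentiation medium with 2% horse serum, and the labels call the cells mouse myotube. The siNC group holds 3 libraries from cells given a negative control siRNA, and the siCNN3 group holds 3 from cells given an siRNA against CNN3. The study's supplement lists NC siRNA and 3 CNN3 duplexes among its siRNAs, and which of the 3 was used for sequencing is not given in the sources used here. Their sense strands are shown because they are the only designed difference between the groups, with the 19 paired bases in capitals and the overhang in lower case.
NC siRNA: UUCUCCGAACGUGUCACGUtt
CNN3 siRNA1: GCCUAGGCAUUGGCACCAAtt
CNN3 siRNA2: CCAUUGACAUUGGCGUUAAtt
CNN3 siRNA3: GGGCACCAAUGGGUCGGAAtt
Each CNN3 sense strand matched Cnn3 over its 19 paired bases. In the listed transcripts of the 44 genes, the longest exact match was 10 bases for CNN3 siRNA1 and for CNN3 siRNA3, both in Itgb3, and 9 bases for CNN3 siRNA2, in Cfl2, Flnc, Msn, Rhoa and Rhoc. The longest match of NC siRNA in these genes was also 9 bases.

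A level is given as FPKM, a fragment count scaled by transcript length and by library size, summed over the listed transcripts of a gene. The number of reads is not given, so the depth is unknown and no counting error can be stated. The targeted gene, Cnn3, was at 61.4 to 62.8 FPKM in siNC and 19.04 to 39.2 FPKM in siCNN3. The skeletal muscle markers (16 of 18 listed, without Myh8 and Actc1, and 8 of 15 tested called lower) summed to 202 to 247 FPKM in siNC and 122 to 136 FPKM in siCNN3, and the interferon response markers (9 of 9 listed, 7 called higher) to 20.6 to 361 FPKM in siNC and 1579 to 3288 FPKM in siCNN3, with siCNN3 replicate 3 at the lowest siCNN3 value. Fibroblast markers (6 of 8 listed, 0 called by limma and 2 at an unadjusted p below 0.05) summed to 1061 to 1463 FPKM in siNC and 707 to 871 FPKM in siCNN3, and blood and immune markers (5 of 10 listed, 2 called lower) to 229.9 to 657 FPKM in siNC and 53.5 to 75.05 FPKM in siCNN3. Tek was the 1 endothelial marker of 5 that was listed, at 0.681 to 1.37 FPKM in siNC and 0.733 to 1.24 FPKM in siCNN3. Myog, a regulator that marks differentiation, was at 1.23 to 3.07 FPKM in siNC and 0.485 to 0.907 FPKM in siCNN3, so a defining gene of the labelled cell type was low in both groups, while desmin (Des) was at 113 to 125 FPKM in siNC and 84.3 to 103 FPKM in siCNN3. Myf5, a regulator of myoblasts, lay the other way, at 3.55 to 5.64 FPKM in siNC and 5.398 to 12.95 FPKM in siCNN3. Apart from Tek, the summed levels of these marker lists did not overlap between the groups, and their part in the values below was not tested. In bulk RNA, fewer cells of a type and less RNA per cell cannot be told apart.

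Focal adhesion and stress fibre genes were abundant in these cells. Their median level was 53.99 FPKM, compared with 9.91 FPKM over all 11593 tested genes. Of the 44, 42 lay above the median of all genes and 23 above the 90th percentile. The most abundant was Cfl1, the non-muscle cofilin that severs actin filaments, at a mean of 672 FPKM, and the least was Limk1, a kinase that inactivates cofilin, at 5.205 FPKM.

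None of the 44 genes was called different between siCNN3 and siNC. A gene was called when its Benjamini-Hochberg adjusted p from limma, over all tested genes and on log2(FPKM + 1), was below 0.05, and 2.06% of all genes were called (1.73% higher and 0.336% lower). The lowest adjusted p of a member was 0.129. Before adjustment, 7 members had p below 0.05 in limma, or 15.9%, beside 16.1% of all genes. They were 2 higher (Rhoc and Flnc), or 4.55% of the members beside 9.94% of all genes, and 5 lower (Itga7, Itgav, Vcl, Palld and Rhoa), or 11.4% beside 6.14%. Without the mean-variance trend limma called 0 members as well, with 4 at an unadjusted p below 0.05 (9.09%, beside 16.2% of all genes). That count was 13 (12 lower) after quantile normalization, or 29.5% beside 18.97% of all genes, and between 2 (4.55%, beside 11.6% of all genes without siNC replicate 3 and 9.92% without siCNN3 replicate 2) and 10 (without siCNN3 replicate 3, 22.7% beside 24.2%) with 1 library left out. The 2 groups did not overlap for 6 members, or 13.6%, beside 23.1% of all genes. Of these 6, 4 were lower (9.09%, beside 9.35% of all genes) and 2 higher (4.55%, beside 13.8%). The whole table held 200 genes called higher and 39 lower, and 199 and 93 after quantile normalization.

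Fold changes were small. They ran from -0.63 for Itga7 to 0.42 for Lims1 on the log2 scale, and 2 of 44 were beyond 0.5 in size, Itga7 and Itgav. The median was -0.13, beside 0.028 over all genes, with 29 of 44 members (65.9%) below 0, beside 46.02% of all genes. It was -0.043 (27 below 0) without siNC replicate 2 and -0.067 (27 below 0) without siNC replicate 3. Under median-of-ratios scaling the median was -0.17 (all genes -0.0032) and under quantile normalization it was -0.24 (all genes -0.045). It was -0.046, with 25 members below 0, after the dependence of each library on GC content and length was taken out. In siCNN3 replicates 1 and 2 the deviation of a gene from its mean had a Spearman correlation of -0.15 and -0.17 with its GC content over 11593 genes, compared with 0.083 to 0.12 in the siNC libraries and 0.035 in siCNN3 replicate 3. With length the correlation was 0.046 to 0.11 in the siNC libraries and -0.10, -0.079 and -0.018 in siCNN3 replicates 1, 2 and 3. These correlations are across genes, which are not independent replicates. The transcripts of the members had a median GC content of 52.8%, compared with 50.2% over all genes, and a median length of 3546 bases, compared with 2744. The trends with GC content and length were removed together.
Intervals were wide for some of these genes, so a call that was not made does not show equal levels. The 95% interval lay within 1 log2 unit of 0 for 39 of the 44 genes, and it left out 0 for 7 of them.

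**Figure D1:**
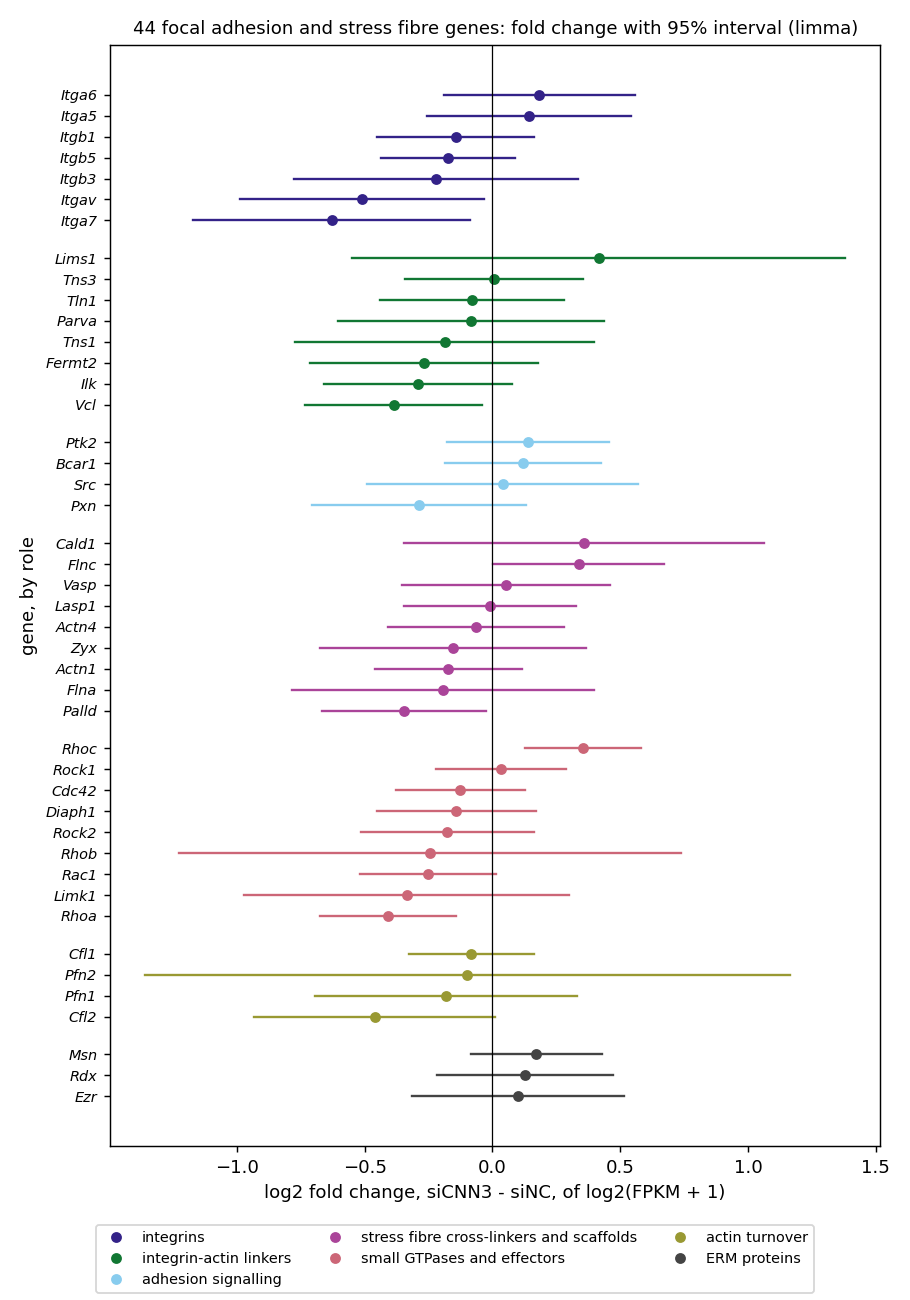
Log2 fold change of 44 genes (siCNN3 minus siNC, on log2(FPKM + 1), horizontal axis) with the 95% interval from limma as a line, grouped by role and coloured by it. The points lie between -0.63 (Itga7) and 0.42 (Lims1), and the intervals of 7 genes leave out 0 before adjustment.

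Among the integrins, 5 of the 7 tested chains had a fold change below 0 and none was called. The lowest was Itga7, the alpha chain of the muscle laminin receptor (GRCm38, chromosome 10, 128933818 to 128958282), which was at 149.8, 119 and 138 FPKM with NC siRNA (replicates 1, 2 and 3) against 70.5, 74.6 and 125 FPKM with CNN3 siRNA. Replicates 1 and 2 of siCNN3 were well below every siNC library, while replicate 3 lay among the siNC values, so the groups overlapped. The log2 fold change of Itga7 was -0.63 (SE 0.23, 95% interval -1.17 to -0.086, adjusted p = 0.244, limma). Without siCNN3 replicate 3 it was -0.89 (adjusted p = 0.0212, limma) and Itga7 was called lower, in a fit that called 1.39% of all genes lower. Without siCNN3 replicate 1 the fold change of Itga7 was -0.48 (adjusted p = 0.600, limma).
Itgav, the alpha chain of receptors for vitronectin and fibronectin (chromosome 2, 83724397 to 83806916), was at 18.5, 12.5 and 14.9 FPKM with NC siRNA against 9.09, 9.19 and 12.99 FPKM with CNN3 siRNA. Replicate 3 of siCNN3 was the highest of its group and lay above siNC replicate 2. Its log2 fold change was -0.51 (SE 0.20, 95% interval -0.99 to -0.035, adjusted p = 0.279, limma).
Itgb1, the beta chain that pairs with most of these alpha chains, was the most abundant integrin, at 198, 170.2 and 212 FPKM with NC siRNA against 157, 171 and 196 FPKM with CNN3 siRNA. The groups overlapped, and the log2 fold change was -0.14 (SE 0.13, 95% interval -0.45 to 0.16, adjusted p = 0.632, limma). The other beta chains, Itgb3 and Itgb5, had log2 fold changes of -0.22 and -0.17. With 1 library left out, Itgb3 was between -0.44 and -0.10 and Itgb5 between -0.24 and -0.10. Within the 3 beta chains, Itgb1 held 68.7% ± 1.93 of the summed FPKM in siNC and 69.3% ± 1.74 in siCNN3 (SD, n = 3 each), a difference within the spread of the libraries.
Above 0 were the fibronectin receptor chain Itga5 (0.14) and the laminin receptor chain Itga6 (0.18), which with 1 library left out were as low as 0.0057 (without siCNN3 replicate 3) and 0.055 (without siNC replicate 2). Itga5 was at 73.1, 56.7 and 74.1 FPKM with NC siRNA against 65.4, 70.2 and 90.3 FPKM with CNN3 siRNA, and siCNN3 replicate 3 was the highest of the 6 libraries, as siNC replicate 2 was the lowest. Shares of the 4 alpha chains within a library are free of its scaling. Itga7 held 58.5, 59.5 and 56.6% under siNC and 43.6, 43.5 and 51.3% under siCNN3 of their summed FPKM, and Itga5 held 28.5, 28.3 and 30.3% under siNC and 40.4, 40.9 and 37.03% under siCNN3. For both chains the share in every siCNN3 library, replicate 3 included, was outside the siNC range. Shares within a library depend on each other, since a lower share of Itga7 raises those of the other chains. The shares of Itga7 and Itga5 are thus not separate results.

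The 8 linkers between integrins and actin gave 6 fold changes below 0 and 2 above, and 4 below and 4 above with the trend in GC content and length removed. Vcl, which encodes vinculin (chromosome 14, 20929398 to 21033676), was at 117, 113 and 133 FPKM with NC siRNA (replicates 1, 2 and 3) against 78.0, 91.4 and 109 FPKM with CNN3 siRNA. All siCNN3 values were below all siNC values, with replicate 3 the closest. Its log2 fold change was -0.39 (SE 0.15, 95% interval -0.73 to -0.039, adjusted p = 0.265, limma). It was -0.51 without siCNN3 replicate 3, and still not called (adjusted p = 0.0839, limma), and -0.27 without siCNN3 replicate 1 (adjusted p = 0.637, limma).
Ilk, integrin-linked kinase, a scaffold that binds parvin and PINCH (chromosome 7, 105736592 to 105742925), was at 37.9, 51.01 and 54.1 FPKM with NC siRNA against 37.7, 40.3 and 36.8 FPKM with CNN3 siRNA. Replicate 1 of siNC lay among the siCNN3 values, and the log2 fold change was -0.29 (SE 0.16, 95% interval -0.66 to 0.076, adjusted p = 0.406, limma).
Its partners Parva (alpha-parvin) and Lims1 (PINCH1) had log2 fold changes of -0.083 and 0.42, which were 0.11 and -0.049 without siNC replicate 2. Lims1 was at 62.8, 22.7 and 60.1 FPKM with NC siRNA against 44.1, 61.2 and 77.2 FPKM with CNN3 siRNA, so that siNC replicate 2 stood far below every other library, and its interval ran from -0.55 to 1.38. Tln1, talin 1, which activates integrins, ranged from 40.2 to 54.8 FPKM over the 6 libraries with a log2 fold change of -0.081, which was 0.026 without siCNN3 replicate 3 and 0.17 with the trend in GC content and length removed. Fermt2, kindlin-2, its partner on the beta tail, was at 58.3, 54.5 and 62.9 FPKM with NC siRNA against 38.6, 45.97 and 63.7 FPKM with CNN3 siRNA, low in siCNN3 replicates 1 and 2 and within or just above the siNC values in replicate 3. The tensins Tns1 and Tns3 had log2 fold changes of -0.19 and 0.0067. With 1 library left out, Tns1 was between -0.43 and 0.061 and Tns3 between -0.14 and 0.093.

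Vcl and Fermt2 were also the 2 members with a CArG box, the motif bound by serum response factor, in the promoter windows that RefSeq gives for GRCm38.p6 (250 bases before to 50 after a start). These windows were found for 36 of the 45 genes (47 windows) and both strands are covered, since the motif is its own reverse complement in form. A CArG box was in 2 of the 47 windows (4.26%), beside 1.63% of all 32851 windows. Both matches are shown with 10 bases on each side and the motif in capitals.
Vcl: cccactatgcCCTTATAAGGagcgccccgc
Fermt2: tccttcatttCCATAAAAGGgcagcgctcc
The Vcl stretch is chr14:20929161-20929190 on the plus strand and its motif begins 227 bases before the start site. The Fermt2 stretch is chr14:45530250-45530279 on the minus strand, with the motif 204 bases before the start site. A match is a description of these letters and not a site of binding.

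Of the 4 adhesion signalling genes, Pxn had a fold change below 0 and Ptk2, Bcar1 and Src had one above it, where Src was at -0.030 under quantile normalization. Pxn encodes paxillin, the adaptor that FAK phosphorylates (chromosome 5, 115506676 to 115555987), and was at 21.8, 19.2 and 19.2 FPKM with NC siRNA against 13.8, 14.8 and 20.97 FPKM with CNN3 siRNA. Replicates 1 and 2 of siCNN3 were below all siNC libraries and replicate 3 was among them. On the log2 scale the difference was -0.29 (SE 0.18, 95% interval -0.71 to 0.13, adjusted p = 0.477, limma). Ptk2, the gene of FAK itself (chromosome 15, 73205102 to 73423280), was at 27.6, 31.7 and 35.7 FPKM with NC siRNA against 34.8, 37.3 and 32.3 FPKM with CNN3 siRNA, with overlapping groups and a log2 fold change of 0.14 (SE 0.13, 95% interval -0.18 to 0.46, adjusted p = 0.658, limma). Bcar1 (the scaffold p130Cas) and Src had log2 fold changes of 0.12 and 0.040. With 1 library left out, Bcar1 was between 0.025 and 0.19 and Src between -0.20 and 0.20.

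**Figure D2:**
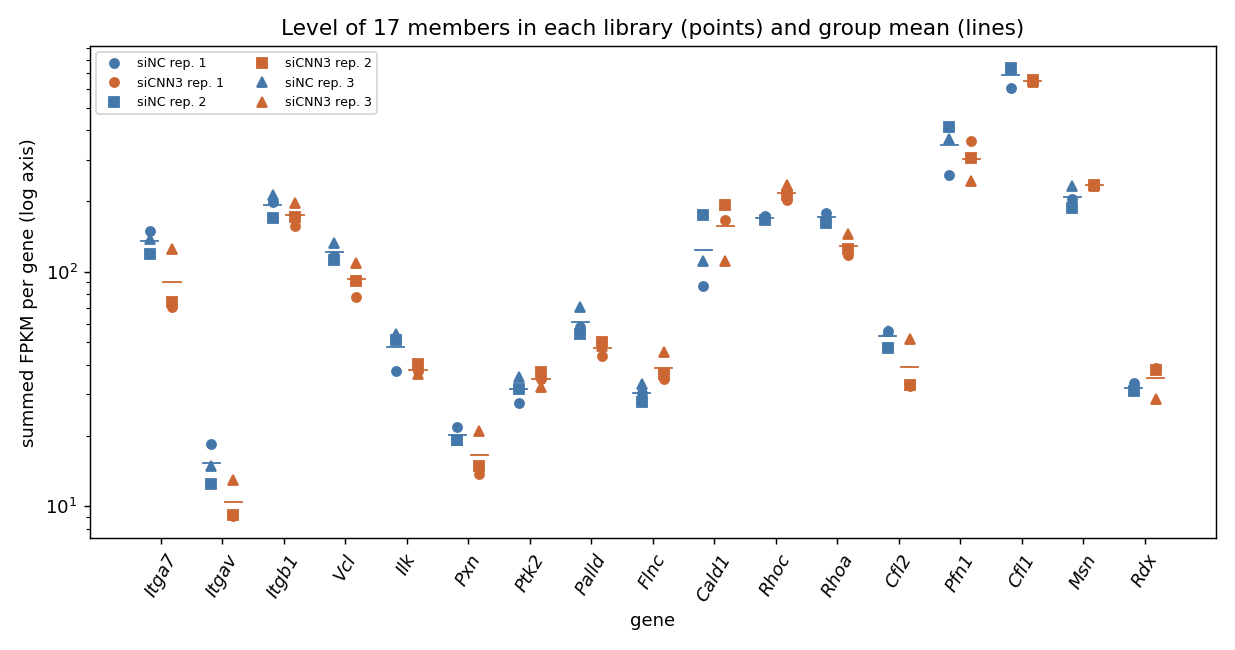
Summed FPKM (log axis) of 17 members, the 2 with the lowest p and the most abundant of each role, with 1 point per library (circle, square and triangle for replicates 1, 2 and 3), siNC in blue and siCNN3 in orange, and a line at each group mean. The orange triangle, siCNN3 replicate 3, lies near the blue points for Itga7, Pxn and Cfl2, while Rhoc and Rhoa keep the 2 groups apart.

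Cross-linkers and scaffolds of stress fibres gave 6 fold changes below 0 and 3 above, and 4 below and 5 above with the trend in GC content and length removed. Palld, palladin, which organises actin bundles with alpha-actinin (chromosome 8, 61511433 to 61902690), was at 57.9, 54.04 and 70.5 FPKM with NC siRNA against 43.5, 50.2 and 48.4 FPKM with CNN3 siRNA. The groups did not overlap, with all siCNN3 values the lower ones, and the difference on the log2 scale was -0.35 (SE 0.14, 95% interval -0.67 to -0.026, adjusted p = 0.275, limma).
Flnc, the muscle-enriched filamin (chromosome 6, 29433256 to 29461883), was the opposite, at 30.4, 27.8 and 33.3 FPKM with NC siRNA against 34.97, 36.7 and 45.3 FPKM with CNN3 siRNA. All siCNN3 values were above all siNC values and replicate 3 was the highest. Flnc had a log2 fold change of 0.34 (SE 0.14, 95% interval 0.0027 to 0.67, adjusted p = 0.306, limma), and it was 0.61 (adjusted p = 0.0505, limma) with the trend in GC content and length removed. Under quantile normalization it was 0.24 (adjusted p = 0.440, limma), and without siCNN3 replicate 3 it was 0.23 (adjusted p = 0.307, limma).
Cald1, caldesmon, which like calponin binds actin and restrains myosin (chromosome 6, 34598500 to 34775473), was the most abundant gene of this role, at 87.1, 174 and 111 FPKM with NC siRNA (replicates 1, 2 and 3) against 167, 193 and 111 FPKM with CNN3 siRNA. Its libraries did not sort by group: siNC replicate 2 was as high as the upper siCNN3 libraries and siCNN3 replicate 3 was at the level of siNC replicate 3. On the log2 scale Cald1 differed by 0.36 (SE 0.30, 95% interval -0.35 to 1.06, adjusted p = 0.598, limma). With 1 library left out this was between 0.13 (without siNC replicate 1) and 0.63 (without siNC replicate 2).
Flna, the ubiquitous filamin, was at 92.9, 158 and 151 FPKM with NC siRNA against 123, 137 and 88.3 FPKM with CNN3 siRNA, with siNC replicate 1 and siCNN3 replicate 3 low and the other 4 libraries high. Actn1, a non-muscle alpha-actinin, was at 105, 134 and 126 FPKM with NC siRNA against 102, 109.8 and 109.9 FPKM with CNN3 siRNA, with siNC replicate 1 among the siCNN3 values. Actn4, its paralog, was at 88.1, 96.3 and 93.2 FPKM with NC siRNA against 89.04, 73.6 and 105 FPKM with CNN3 siRNA, and the siCNN3 group held both the lowest and the highest value. The alpha-actinins Actn1 and Actn4 had log2 fold changes of -0.17 and -0.065, zyxin (Zyx) -0.15, its partner Vasp 0.053 and Lasp1, a LIM and SH3 protein of adhesions, -0.0085. With 1 library left out, Actn1 was between -0.28 and -0.097, Actn4 between -0.19 and 0.064 and Zyx between -0.36 and -0.020. Vasp was then between -0.082 and 0.18 and Lasp1 between -0.14 and 0.066.

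The small GTPases held the members with the lowest p, in opposite directions. Rhoa, the GTPase that drives stress fibre assembly through ROCK and mDia (chromosome 9, 108306129 to 108337934), was at 178, 161 and 174 FPKM with NC siRNA (replicates 1, 2 and 3) against 118, 124 and 145 FPKM with CNN3 siRNA. The highest siCNN3 value was below the lowest siNC value, and the mean was 75.4% of that in siNC. Rhoa had a log2 fold change of -0.41 (SE 0.11, 95% interval -0.68 to -0.14, adjusted p = 0.134, limma). Without siCNN3 replicate 3 Rhoa was called lower, at -0.49 (adjusted p = 0.0464, limma), and without siCNN3 replicate 1 it was at -0.35 (adjusted p = 0.439, limma).
Rhoc, a close paralog of Rhoa linked to cell motility (chromosome 3, 104788375 to 104794459), was at 172, 166 and 168 FPKM with NC siRNA (replicates 1, 2 and 3) against 202, 213 and 234 FPKM with CNN3 siRNA. The SD of the siNC libraries was 3.09 FPKM, and all siCNN3 libraries were above them, with a mean at 128% of the siNC mean. Rhoc had a log2 fold change of 0.35 (SE 0.10, 95% interval 0.13 to 0.58, adjusted p = 0.129, limma), and with each library left out in turn it was between 0.30 and 0.40 and was not called (lowest adjusted p = 0.114, limma). Under quantile normalization it was 0.21.
Rhob, the third paralog, which is induced by stress and growth factors, was at 118, 72.3 and 100.1 FPKM with NC siRNA against 54.4, 59.05 and 158 FPKM with CNN3 siRNA. The siCNN3 group held both the lowest and the highest value of the 6 libraries, and the interval of its log2 fold change ran from -1.23 to 0.74. The sum of the 3 paralogs was 437 ± 34.3 FPKM with NC siRNA and 436 ± 88.1 FPKM with CNN3 siRNA (SD, n = 3 each).
Rac1, which drives lamellipodia, was at 76.6, 89.1 and 87.4 FPKM with NC siRNA against 75.8, 69.8 and 66.3 FPKM with CNN3 siRNA, without overlap between the groups, and differed by -0.25 on the log2 scale (adjusted p = 0.331, limma). Cdc42, the GTPase of filopodia, had -0.13. Rock1, one of the kinases activated by RhoA, varied least of all in this role, from 19.4 to 20.8 FPKM over the 6 libraries, and its log2 fold change was 0.034. Rock2 had -0.18, the formin Diaph1 -0.14 and the LIM kinase Limk1 -0.34.

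All 4 genes of actin turnover had fold changes below 0, except that Pfn2 was above 0 in 4 of the 6 fits with 1 library left out. Cfl2, the cofilin of skeletal muscle (chromosome 12, 54858809 to 54862877), was at 56.0, 47.2 and 56.1 FPKM with NC siRNA (replicates 1, 2 and 3) against 32.7, 32.8 and 51.8 FPKM with CNN3 siRNA. Replicates 1 and 2 of siCNN3 were below all siNC libraries, and replicate 3 was within the siNC range. Cfl2 had a log2 fold change of -0.46 (SE 0.20, 95% interval -0.93 to 0.011, adjusted p = 0.32, limma). Without siCNN3 replicate 3 Cfl2 was called lower, at -0.68 (adjusted p = 0.0403, limma), and without siCNN3 replicate 1 it was at -0.35 (adjusted p = 0.681, limma).
Cfl1 (chromosome 19, 5490455 to 5495201) was at 607, 736 and 734 FPKM with NC siRNA against 650.3, 658 and 646 FPKM with CNN3 siRNA. The siCNN3 libraries lay close together between siNC replicate 1 and the other siNC libraries, with a log2 fold change of -0.083 (SE 0.10, 95% interval -0.33 to 0.16, adjusted p = 0.741, limma). Pfn1, profilin 1, which feeds actin monomers to growing filaments (chromosome 11, 70651850 to 70654644), was at 257, 416 and 367 FPKM with NC siRNA against 362, 306 and 244 FPKM with CNN3 siRNA. Low values came from siNC replicate 1 and siCNN3 replicate 3, and the log2 fold change was -0.18 (SE 0.22, 95% interval -0.69 to 0.33, adjusted p = 0.729, limma). It was between -0.38 (without siNC replicate 1) and -0.032 (without siCNN3 replicate 3) with 1 library left out. Pfn2, its low-abundance paralog, ranged from 3.33 FPKM in siNC replicate 2 to 13.7 FPKM in siNC replicate 1, so that the siNC libraries spanned all siCNN3 values.

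The 3 ERM proteins, which tie the plasma membrane to cortical actin, all had fold changes above 0, except that Ezr was below 0 without siCNN3 replicate 3, and under quantile normalization those of Msn and Rdx were close to 0 (0.0079 and 0.037). Msn, moesin (chromosome X, 96096042 to 96168552), was at 205, 187 and 233 FPKM with NC siRNA against 235, 235 and 232 FPKM with CNN3 siRNA. The siCNN3 libraries lay close together, and siNC replicate 3 was among them. Its log2 fold change was 0.17 (SE 0.11, 95% interval -0.084 to 0.43, adjusted p = 0.486, limma). Rdx, radixin (chromosome 9, 52047173 to 52088735), was at 33.4, 31.1 and 31.2 FPKM with NC siRNA against 38.8, 38.1 and 28.7 FPKM with CNN3 siRNA, higher than every siNC library in siCNN3 replicates 1 and 2 and lower than each of them in replicate 3. The log2 fold change of Rdx was 0.13 (SE 0.15, 95% interval -0.22 to 0.47, adjusted p = 0.718, limma), and that of Ezr, ezrin, was 0.10.

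**Figure D3:**
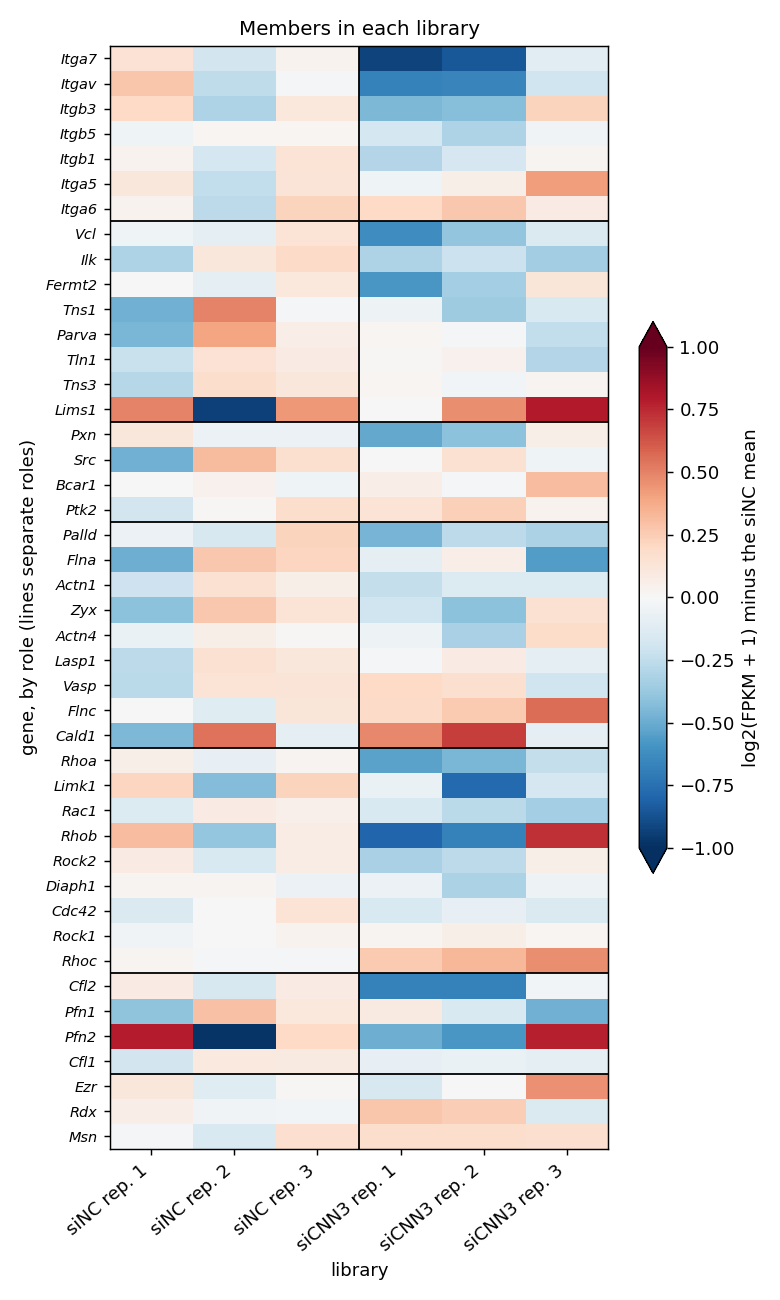
Log2(FPKM + 1) of each of the 44 genes in each of the 6 libraries, as the difference from the siNC mean (colour, red above and blue below, cut at 1 in size), with genes in rows by role and libraries in columns. Itga7, Itgav, Vcl, Rhoa and Cfl2 are blue in siCNN3 replicates 1 and 2 and paler in replicate 3, where Rhob, Pfn2 and Lims1 are red.

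Leaving out siCNN3 replicate 3 called 3 members lower, Cfl2, Itga7 and Rhoa, or 6.82%, beside 1.39% of all genes called lower and 5.22% called in either direction. That library was the siCNN3 library nearest to the siNC mean for 20 of 44 members (45.5%), beside 46.6% of all genes. No member was called with any other library left out. The map of members by library shows that siCNN3 replicates 1 and 2 were the 2 lowest of the 6 libraries for 11 members, namely Itgav, Itga7, Itgb3, Itgb5, Vcl, Fermt2, Pxn, Rhoa, Rhob, Rock2 and Cfl2. That is 25.0% of the 44, beside 15.99% of all genes. They were the 2 highest for 3 members, or 6.82%, beside 22.4% of all genes. A different pair, siNC replicate 1 and siCNN3 replicate 3, were the 2 lowest for 9 members (Tln1, Parva, Src, Flna, Cald1, Lasp1, Vasp, Cfl1 and Pfn1), or 20.5%, beside 25.1% of all genes. These 2 libraries also had the lowest median-of-ratios size factors, 0.910 and 0.993, against 1.027 to 1.036 in the others. The FPKM counted here were not rescaled by these factors, and the part of scaling in the counts was not tested. These pairs of libraries were chosen after their values were seen, and the counts are a description. Cnn3 itself was at 19.04, 39.2 and 25.6 FPKM in siCNN3 replicates 1, 2 and 3, and the interferon response markers summed to 3288, 3091 and 1579 FPKM.

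Ratios between members of a family do not depend on how the libraries are scaled to each other. For 8 pairs the log2 ratio of summed FPKM was compared between the groups with a two-sided exact permutation test, adjusted over the 8 pairs, in which 3 libraries against 3 cannot give a p below 0.1. Itga7 to Itga5, the laminin receptor chain to the fibronectin receptor chain, had log2 ratios of 1.04, 1.07 and 0.90 in siNC and 0.11, 0.087 and 0.47 in siCNN3. The level of Itga7 was thus about 1 log2 unit above that of Itga5 in every siNC library and about 0.1 above it in siCNN3 replicates 1 and 2, with replicate 3 between. The difference was -0.78 (exact permutation p = 0.1, adjusted p = 0.6), and this was the only one of the 8 pairs whose groups did not overlap.
Muscle-enriched against ubiquitous members gave no common direction. Flnc to Flna had log2 ratios of -1.61, -2.50 and -2.18 in siNC and -1.81, -1.90 and -0.96 in siCNN3, a difference of 0.54. For Cfl2 to Cfl1 the ratios were -3.44, -3.96 and -3.71 in siNC and -4.31, -4.32 and -3.64 in siCNN3, a difference of -0.39. Both gave an exact permutation p of 0.3, and in both the groups overlapped. The differences for Rock2 to Rock1, Tns1 to Tns3 and Actn1 to Actn4 were -0.21, -0.20 and -0.11, and those for Rhob to Rhoa and Pfn2 to Pfn1 were 0.16 and 0.082 (exact permutation p from 0.3 to 0.9).
The ratio of Rhoc to Rhoa was looked at after their values were seen and has no test. It was 0.969, 1.03 and 0.961 in siNC and 1.71, 1.71 and 1.61 in siCNN3. The ratio was 0.961 to 1.03 over the siNC libraries and at least 1.61 in every siCNN3 library, replicate 3 included.

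**Figure D4:**
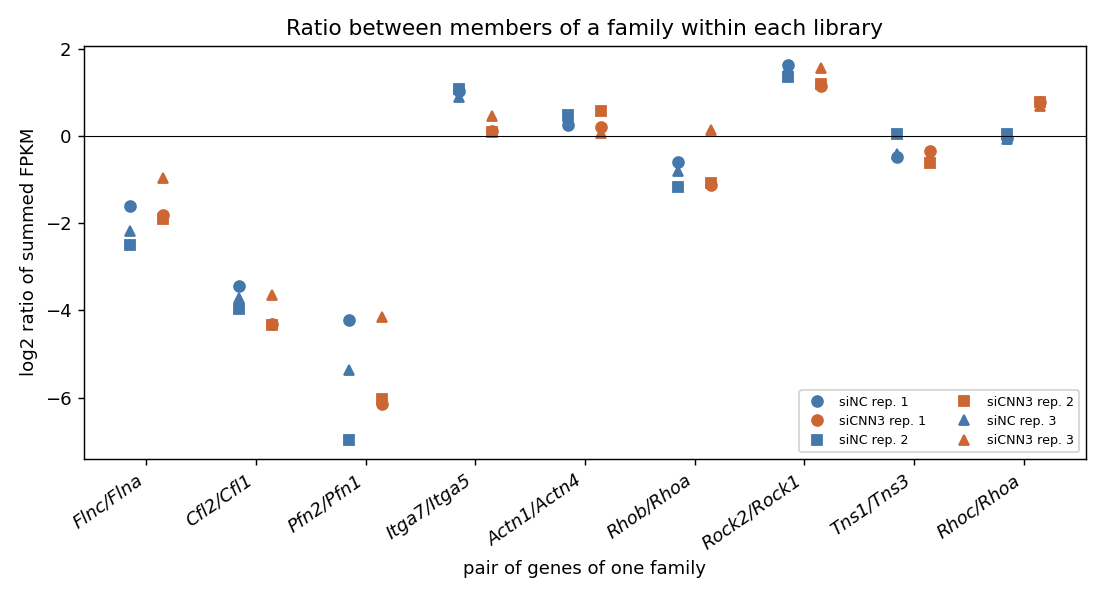
Log2 ratio of the summed FPKM of 2 genes of a family within each library (siNC blue, siCNN3 orange, circle, square and triangle for replicates 1, 2 and 3), for 8 pairs and for Rhoc/Rhoa, which was added after the data were seen. Itga7/Itga5 and Rhoc/Rhoa keep the colours apart, and the points of Pfn2/Pfn1 run from -6.97 to -4.23 in siNC and from -6.15 to -4.15 in siCNN3.

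The deposited values are per transcript, and 32 of the 44 genes have more than 1 listed transcript. Of the 115 member transcripts tested 0 were called by limma, beside 0.54% of all transcripts tested. An unadjusted p below 0.05 was found for 10 of the 115, beside 2319 of all 21658 transcripts tested (10.7%). For 24 genes 1 transcript held at least 90% of the FPKM, and its values repeat those of the gene. Itga7-202, for example, was at 144, 114 and 133 FPKM with NC siRNA against 68.1, 72.2 and 121 FPKM with CNN3 siRNA, and the minor Itga7-201 was at 3.21, 4.01 and 4.61 FPKM with NC siRNA against 1.76, 1.86 and 2.32 FPKM with CNN3 siRNA, without overlap (a log2 difference of -0.73, adjusted p = 0.264, limma). Rhoa-201 was at 168, 159 and 172 FPKM with NC siRNA against 117, 120 and 142 FPKM with CNN3 siRNA, and Rhoc-201 at 153, 119 and 123 FPKM with NC siRNA against 168, 176 and 175 FPKM with CNN3 siRNA, so the opposite directions of the paralogs were those of their leading transcripts. Vcl-201 and Flnc-201 had log2 fold changes of -0.39 and 0.44.
For other genes the split between transcripts jumped from library to library. Diaph1-201 was at 0.984, 15.04 and 13.7 FPKM with NC siRNA against 14.1, 8.11 and 0.0398 FPKM with CNN3 siRNA, and Diaph1-203 at 13.5, 0 and 0 FPKM with NC siRNA against 0, 0 and 13.5 FPKM with CNN3 siRNA. Their sum with the other Diaph1 transcripts stayed between 11.8 and 15.2 FPKM. Src-201 and Src-205 also changed places between libraries, with Src-205 at 0, 12.9 and 11.1 FPKM with NC siRNA against 0, 11.3 and 0 FPKM with CNN3 siRNA. Actn4-211 was at 41.1 FPKM in siCNN3 replicate 1 and at most 0.116 FPKM in the others, and Rac1-202 was at 0.0779 FPKM in siCNN3 replicate 3 and at 34.4 to 47.2 FPKM in the others.
Rdx-201, the leading radixin transcript, was at 21.4, 31.1 and 31.2 FPKM with NC siRNA against 29.5, 29.5 and 28.6 FPKM with CNN3 siRNA, with siNC replicate 1 the lowest and the other 5 between 28.6 and 31.2 FPKM. Rdx-202 was at 12.04, 0.03603 and 0.00844 FPKM with NC siRNA against 9.39, 8.57 and 0.129 FPKM with CNN3 siRNA, present in siNC replicate 1 and siCNN3 replicates 1 and 2 and close to 0 in the other 3 libraries. In palladin 2 transcripts offset each other, and Palld-202 was at 57.6, 23.8 and 65.8 FPKM with NC siRNA against 19.5, 46.3 and 47.6 FPKM with CNN3 siRNA and Palld-203 at 0, 25.0 and 4.23 FPKM with NC siRNA against 15.7, 3.65 and 0 FPKM with CNN3 siRNA. The lower Palld-202 values, in siNC replicate 2 and siCNN3 replicate 1, were those of the libraries with most Palld-203, and each of these transcripts alone overlapped between the groups.
Flna-202 was at 15.8, 77.8 and 77.99 FPKM with NC siRNA against 1.99, 9.41 and 9.19 FPKM with CNN3 siRNA, and its log2 fold change of -2.79 (adjusted p = 0.259, limma) was the lowest of any member transcript with an unadjusted p below 0.05. In siCNN3 replicate 1 Flna-203 was at 72.9 FPKM and in replicate 2 Flna-201 was at 108 FPKM. Of the caldesmon transcripts, Cald1-205 was at 6.33, 59.8 and 19.2 FPKM with NC siRNA against 20.5, 51.8 and 27.9 FPKM with CNN3 siRNA. An exact 0 can be a failed estimate, and 7 member transcripts, of 6 genes, were at 0 in 1 or more libraries and at 10 FPKM or more in another. Values of single transcripts in these genes cannot be read as isoform use, and the gene sums are given for that reason.

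**Figure D5:**
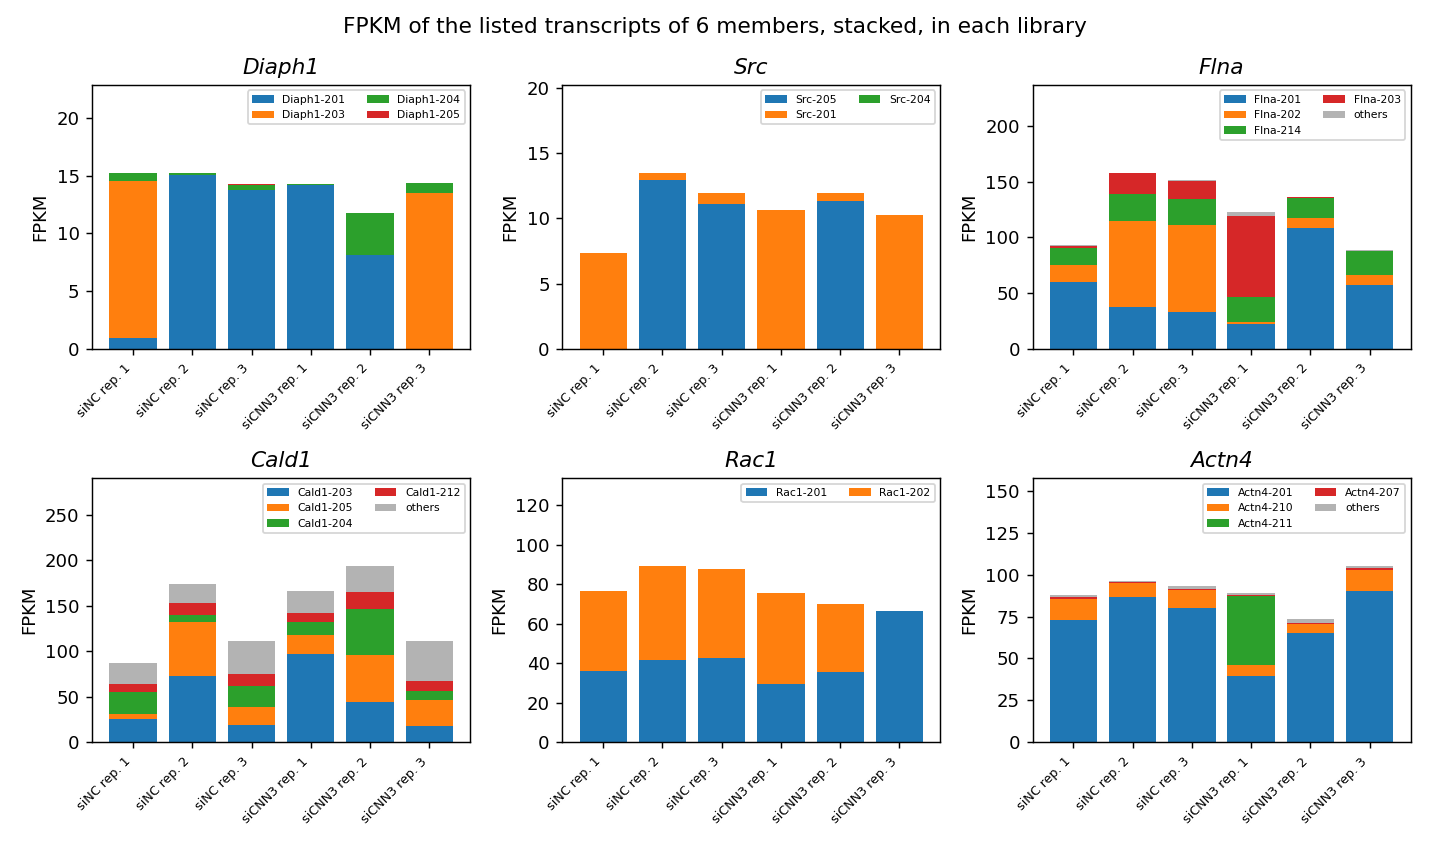
FPKM (vertical axis) of the 4 most abundant listed transcripts of Diaph1, Src, Flna, Cald1, Rac1 and Actn4, stacked by colour with the others in grey, in each of the 6 libraries. The colours change between libraries of 1 group while the total of Diaph1 stays between 11.8 and 15.2 FPKM.

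The wider pathway was read from a list of 90 other focal adhesion and actin genes, of which 83 were listed and tested. By limma 1 was called higher and 0 lower, beside 2.06% of all genes called. Before adjustment 15 had a p below 0.05 (18.1%, beside 16.1% of all genes), 5 of them higher (6.02%, beside 9.94%) and 10 lower (12.05%, beside 6.14%). The median log2 fold change was -0.11, close to that of the members, and 18 genes had groups that did not overlap, or 21.7%, beside 23.1% of all genes.
The called gene was Fhl2, a LIM protein that binds integrin tails and shuttles to the nucleus (chromosome 1, 43123074 to 43196984), at 26.6, 26.5 and 31.6 FPKM with NC siRNA (replicates 1, 2 and 3) against 44.02, 48.4 and 52.0 FPKM with CNN3 siRNA. The siCNN3 values were all above the siNC values, and Fhl2 rose by 0.75 on the log2 scale (SE 0.13, adjusted p = 0.0403, limma). Leaving out siCNN3 replicate 3 kept the call, and leaving out any other library ended it (highest adjusted p = 0.19, limma). The call was also lost under quantile normalization and in limma without the mean-variance trend.
Besides Fhl2, the 3 highest fold changes at an unadjusted p below 0.05 included those of the leukocyte integrin chain Itgb7 (1.22, adjusted p = 0.279, limma) and the formin Diaph3 (0.69, adjusted p = 0.304, limma). The lowest were Limd1, a LIM protein of adhesions, Mylk, the kinase that activates myosin in stress fibres, and Itgb4, a chain of hemidesmosomes.
Mylk was at 8.91, 15.8 and 12.7 FPKM with NC siRNA against 7.11, 7.12 and 5.74 FPKM with CNN3 siRNA, without overlap (a log2 difference of -0.79, adjusted p = 0.134, limma). Itgb4 was low throughout, at 1.08, 2.93 and 2.45 FPKM with NC siRNA against 0.621, 0.963 and 0.912 FPKM with CNN3 siRNA, also without overlap (a log2 difference of -0.74, adjusted p = 0.231, limma). Limd1 was at 10.9, 9.35 and 12.2 FPKM with NC siRNA against 2.25, 2.903 and 10.8 FPKM with CNN3 siRNA, where siCNN3 replicate 3 again lay among the siNC libraries. Its log2 fold change was -1.15 (adjusted p = 0.294, limma), and without that library it was called lower (adjusted p = 0.00676, limma).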

How the data were processed

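RNA of C2C12 cells was sequenced in 6 libraries (3 siNC and 3 siCNN3, grouped by their labels). The authors deposited FPKM for 24023 Ensembl transcripts, 1 column per library. Per the labels, the submitters' processing notes name Bowtie 0.12.2 and the builds mm8 and mm10 without roles, and the program that estimated FPKM and the annotation are not given in the sources used here. Depth is unknown.
Identifiers without version matched GENCODE M21 (GRCm38) for 23949 transcripts. The other 74 held 0.159% to 0.2201% of the FPKM and were left out. FPKM were summed per gene symbol, and a gene was kept where its mean over the libraries reached 0.5 FPKM. Moderated two-sided tests of log2(FPKM + 1), with a trend of the variance on the mean, came from limma 3.58.1 (R 4.3.3; Benjamini-Hochberg adjustment over 11593 genes, threshold 0.05), a scale that understates the change of low genes. The fit was also run on simulated data with independent normal values, and that run does not measure the error rate in these libraries. Labels do not say that libraries came from separate experiments, so p-values measure the spread between these libraries, which may be technical. Transcripts were fitted likewise (21658 tested).
The members, roles, lists and pairs were chosen with earlier results of these data known. Values in every library are given for the 2 members of each role with the lowest p and the most abundant one, and for others where a pair, a library or a transcript result turns on them. These others, and the genes named beyond the 3 highest and 3 lowest of the wider list, were chosen after their values were seen. Some results are not reported here.
Alternatives were a pseudocount of 0.1, no filter or a mean of 5 FPKM, median-of-ratios and quantile scaling, a replicate block, each library left out, limma without a trend, a Student's test and leaving out transcripts listed at 0 somewhere that reach 10 FPKM elsewhere. Removing trends with GC content and length (splines with 4 degrees of freedom) was added after the data were seen. Python 3.11.15 was used with scipy 1.17.1 for the permutation tests and matplotlib 3.10.9 for plots.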

Additional observations from a re-analysis of the deposited data

How the results depend on the processing

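For the 17 members given by role, 100 of the 272 fold changes under 16 alternatives each equal the reported one by construction, and the other 172 kept its direction. Itga7, Rhoa and Cfl2 were called without siCNN3 replicate 3, and no other of these values was called. With 1 library left out, Itgb1 was between -0.23 and -0.071, Ilk between -0.45 and -0.19, Pxn between -0.46 and -0.18, Ptk2 between 0.046 and 0.23, Cfl1 between -0.17 and -0.036, Msn between 0.097 and 0.25 and Rdx between 0.051 and 0.26. These 17 were picked mainly for a low p, and 13 of the other 27 members changed sign under 1 to 4 of the 16 alternatives (Tln1, Parva, Lims1, Tns1, Tns3, Src, Actn4, Lasp1, Vasp, Rhob, Rock1, Pfn2 and Ezr). With each library left out, between 0 and 3 members were called lower and 0 higher, between 0 and 3 of the 83 other focal adhesion and actin genes were called (Fhl2, Limd1 and Myl12b at most, without siCNN3 replicate 3), and between 0 and 1 member transcripts (Zyx-208, without siCNN3 replicate 3). Genes called over the whole table were between 16 and 444 higher and between 4 and 161 lower. Median-of-ratios scaling called 63 genes lower and quantile normalization 93. A Student's test of each gene called 0 higher, 0 lower and 0 members, with 3 members (Rac1, Rhoa and Rhoc) at an unadjusted p below 0.05, beside 15.5% of all genes. Of the wider list 0 genes were called under quantile normalization, limma without a trend or the Student's test.
Same-numbered libraries had correlations of their deviations of -0.28, 0.31 and -0.025, and 1 of 6 libraries correlated best with its own number, so the numbers were not taken to pair the samples. The correlations between groups that were largest in size were those of siCNN3 replicate 3. They were -0.45 with siNC replicate 2 and 0.44 with siNC replicate 1. With the replicate block 62 genes were called higher and 6 lower, and 0 members and 0 of the wider list.
Pair ratios kept their direction in 68 of 72 values. Those with the replicate block equal the reported ratios by construction and could not turn. The same holds without transcripts listed at 0 somewhere and reaching 10 FPKM elsewhere, for pairs that have none. With each library left out, Pfn2 to Pfn1 was between -0.64 (without siNC replicate 2) and 0.73 and below 0 also without siCNN3 replicate 3 (-0.56), and Rhob to Rhoa was between -0.25 (without siCNN3 replicate 3) and 0.38. Actn1 to Actn4 was between -0.26 (without siCNN3 replicate 2) and -0.00016 (without siCNN3 replicate 3) with each library left out. It was 0.19 when transcripts listed at 0 somewhere and reaching 10 FPKM elsewhere were left out. Of the ratios that kept their direction, Flnc to Flna was between 0.25 (without siCNN3 replicate 3) and 0.79 (without siNC replicate 1), Cfl2 to Cfl1 between -0.62 (without siCNN3 replicate 3) and -0.26 (without siNC replicate 1), Rock2 to Rock1 between -0.34 and -0.14, and Tns1 to Tns3 between -0.30 and -0.032 (without siNC replicate 2), and -0.66 without the same transcripts. Itga7 to Itga5 was between -0.90 and -0.71. The cause of these changes was not tested.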

Other observations

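Rhob, Pfn2, Ezr, Lims1, Itgb3 and Pxn had siNC replicate 1 and siCNN3 replicate 3 as their 2 highest libraries, which was so for 13.6% of the members and 9.601% of all genes. These libraries received different siRNA, and no label ties them to each other. Over all tested genes their deviations from the group means had a correlation of 0.44.
Calponin 2 (Cnn2), a paralog of the targeted gene, was at 116, 146 and 142 FPKM with NC siRNA against 109, 116 and 125 FPKM with CNN3 siRNA, with a log2 fold change of -0.21 (SE 0.12, 95% interval -0.50 to 0.086, adjusted p = 0.462, limma). Tagln, a calponin-related actin bundler of stress fibres, was at 27.5, 11.9 and 27.98 FPKM with NC siRNA against 11.2, 9.93 and 25.2 FPKM with CNN3 siRNA, with siNC replicate 2 near the lower siCNN3 libraries and siCNN3 replicate 3 near the higher siNC ones. Its log2 fold change was -0.54 (SE 0.43, 95% interval -1.57 to 0.49, adjusted p = 0.586, limma). The regulatory light chain Myl9 of stress fibre myosin was at 4.62, 4.15 and 7.71 FPKM with NC siRNA against 2.797, 2.74 and 3.23 FPKM with CNN3 siRNA, without overlap, with a log2 fold change of -0.69 (SE 0.22, 95% interval -1.22 to -0.16, adjusted p = 0.195, limma). These 3 genes of the wider list were chosen after their values were seen.
A CArG box was in 7 of 104 promoter windows of the wider list (6.73%), beside 1.63% of all windows.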
